A study of Mus musculus with 4 samples.

Results

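The genes described here encode enzymes that turn squalene into cholesterol, and they were chosen by name, with earlier results of these data known. They are Sqle, Lss, Cyp51, Msmo1, Nsdhl, Hsd17b7, Ebp, Sc5d and Dhcr7. All 9 were among the 10790 genes of the deposited table, Msmo1 under its older symbol Sc4mol, and all 9 passed the filter on low values. The study sequenced polyadenylated RNA of mouse lenses taken whole on postnatal day 4. The 2 Tdrd7 null libraries (Tdrd7 -/-) and the 2 control libraries (wild type) each held RNA pooled from 15 lenses. The sources used here do not give the allele, the strain or the sex of the mice.

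Squalene is an open-chain intermediate of sterol synthesis. Sqle oxidises it and Lss closes the rings to give lanosterol. Cyp51 then removes a methyl group from lanosterol, and the complex of Msmo1, Nsdhl and Hsd17b7 removes a further pair. Ebp and Sc5d move and add double bonds, and Dhcr7 reduces a ring double bond. Fiber cell membranes of the lens are rich in cholesterol. In humans, mutations in LSS, MSMO1, EBP, SC5D and DHCR7 have been linked to cataract. Many genes of the pathway are targets of the sterol-sensing transcription factors SREBP, which often act with the CCAAT-binding factor NF-Y.

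Levels are given as scaled reads, that is, reads per gene that the authors divided by 1 factor for each library. The libraries held 39080159 and 33920522 reads in listed genes for Tdrd7 null replicates 1 and 2, and 41096488 and 42767535 for control replicates 1 and 2. Tdrd7 itself had 165 and 96.6 scaled reads in the Tdrd7 null libraries, against 1188 and 972 in the control libraries. All 18 lens markers looked up, crystallins and Mip among them, were listed, and Foxe3 and 1 of the 2 entries of Lim2 were called lower in the Tdrd7 null lenses. With the trend of fold changes on GC content and length removed (described below), Foxe3 did not pass (limma adjusted p = 0.188) and that entry of Lim2 had no value. None of the 10 macrophage, 8 retina or 7 muscle markers was listed. Of 10 endothelial markers 8 were listed, with a summed level of 22.3 and 27.3 scaled reads in the Tdrd7 null libraries, against 26.8 and 19.3 in the control libraries. Tek and Egfl7 had the highest levels among them and were similar in every library. Cdh5 had 2.23 and 3.72 in the Tdrd7 null libraries, against 3.47 and 1.09 in the control libraries. Kdr, Cldn5, Tie1, Pecam1 and Vwf were also lower in control replicate 2 than in control replicate 1. Of 6 pericyte markers 4 were listed. Their sums were 32.0 and 35.7 in the Tdrd7 null libraries, against 47.3 and 37.3 in the control libraries. Notch3 and Pdgfrb among them were called lower, where 7.88% of all tested genes were. Neither was called with the GC and length trend removed (limma adjusted p = 0.105 and 0.254). Rgs5 and Abcc9 went the other way, uncalled, with log2 fold changes of 0.35 and 0.13. Rgs5 had 5.05 and 7.80 scaled reads in the Tdrd7 null libraries, against 7.53 and 2.86 in the control libraries. Of 5 red cell markers 1 was listed, and of 7 pigment cell markers 1, both below 2 scaled reads in every library. The part of these cells in the results below was not tested. In whole tissue, fewer cells of a type and less RNA per cell cannot be told apart.

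Cyp51 and Nsdhl rose in the Tdrd7 null lenses, to 1.22 and 1.37 times their mean level in control lenses, and Dhcr7 fell, to 0.711 times its level. The other 6 genes did not pass the test. Calls rest on limma with Benjamini-Hochberg adjustment, on log2(scaled reads + 1), with a threshold of 0.05 for the adjusted p. Of the 9 genes 2 were called higher, where 10.1% of all 10696 tested genes were, and 1 was called lower, where 7.88% were. In 5 of the 9 genes both Tdrd7 null libraries lay above both control libraries, as in 30.2% of all tested genes, and in 1 both lay below, as in 31.3%. The median log2 fold change of the 9 genes was 0.13, against -0.0052 over all tested genes, and with the GC and length trend removed it was 0.046, against 5.28e-05. Their choice was made with earlier results of these data known, so these counts are descriptions.

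The regions upstream of the 3 called genes are printed here because SREBP targets carry known elements there. Each is the 250 bases before a RefSeq start site (GRCm38.p6), read 5′ to 3′ on the gene's strand, with CCAAT, or its reverse complement ATTGG, in capitals. Dhcr7 has several start sites in that table, and both a distal and a proximal one are given. They lie at chr5:4104698-4104947 (minus strand) for Cyp51, chrX:72918271-72918520 (plus strand) for Nsdhl, chr7:143822917-143823166 (plus strand) for the distal Dhcr7 start and chr7:143829964-143830213 (plus strand) for the proximal one.
Cyp51: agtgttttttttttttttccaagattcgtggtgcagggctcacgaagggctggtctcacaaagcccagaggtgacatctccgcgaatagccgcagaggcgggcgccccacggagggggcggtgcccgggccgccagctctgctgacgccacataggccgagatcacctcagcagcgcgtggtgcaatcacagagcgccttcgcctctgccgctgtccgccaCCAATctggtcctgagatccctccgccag
Nsdhl: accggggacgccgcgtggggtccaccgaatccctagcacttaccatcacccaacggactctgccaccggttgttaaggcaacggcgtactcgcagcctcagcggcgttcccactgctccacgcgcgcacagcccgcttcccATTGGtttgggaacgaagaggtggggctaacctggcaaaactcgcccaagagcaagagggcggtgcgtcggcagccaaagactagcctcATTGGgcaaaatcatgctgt
Dhcr7, distal start: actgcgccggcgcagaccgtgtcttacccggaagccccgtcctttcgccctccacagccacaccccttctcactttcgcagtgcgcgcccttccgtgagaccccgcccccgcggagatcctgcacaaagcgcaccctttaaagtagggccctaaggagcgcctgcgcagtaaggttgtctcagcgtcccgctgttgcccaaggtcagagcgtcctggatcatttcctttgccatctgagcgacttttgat
Dhcr7, proximal start: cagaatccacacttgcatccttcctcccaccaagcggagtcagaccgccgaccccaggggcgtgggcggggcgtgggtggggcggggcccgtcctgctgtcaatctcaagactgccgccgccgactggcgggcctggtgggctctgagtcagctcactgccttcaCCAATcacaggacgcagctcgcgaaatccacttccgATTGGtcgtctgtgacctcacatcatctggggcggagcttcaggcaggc

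CCAAT was present on either strand in the window of Cyp51, in that of Nsdhl at 2 places and in that of the proximal Dhcr7 start at 2 places, and not in that of the distal Dhcr7 start. RefSeq windows were at hand for 8 of the 9 genes, all but Sqle, and each of the 8 had CCAAT in at least 1 window. Among all measured genes with a window, 40.9% of 8604 had it in at least 1, and 33.8% of all 32851 windows held it. The GC box GGGCGG, searched on both strands, was in at least 1 window of all 8 genes and of 66.7% of measured genes. TCACNCCAC, a form of the sterol response element searched on both strands, was in none of the 8 and in 1.15% of measured genes. Other forms of this element were not searched, so its absence from these windows is not shown. These matches are a description of letters. Counted over any window, they did not separate the genes that rose from the one that fell, since Cyp51, Nsdhl and Dhcr7 all had CCAAT and GGGCGG. Cyp51 and Nsdhl each had CCAAT in their only window. Dhcr7 had it in the proximal window alone, and a further Dhcr7 window, chr7:143823149-143823398, not printed here, held neither CCAAT nor GGGCGG. A gene with more start sites has more windows in which a match can fall.

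**Figure D1:**
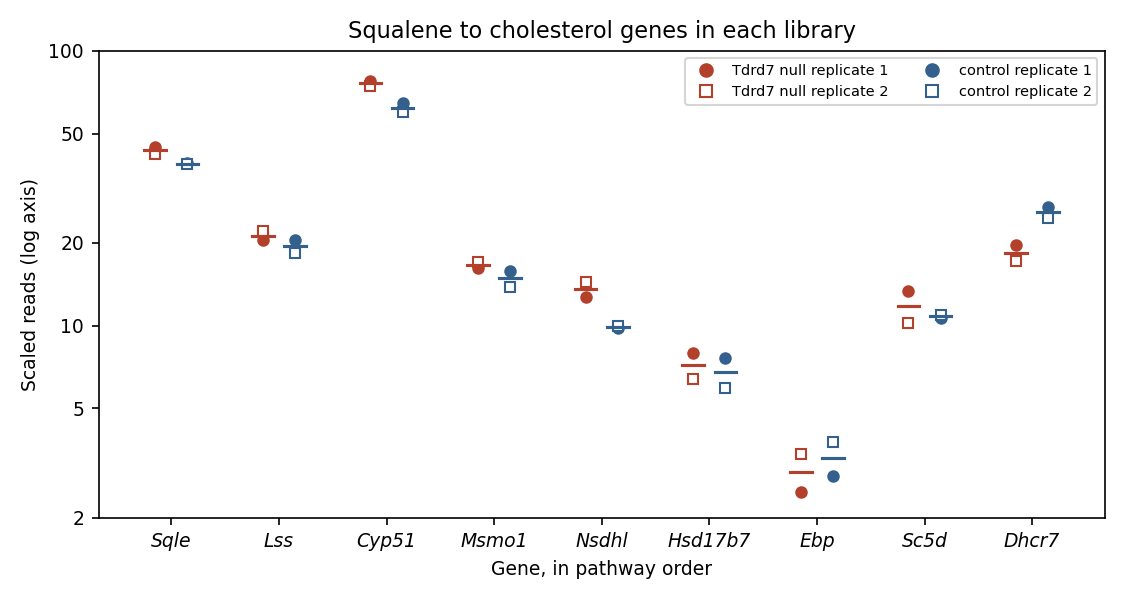
Scaled reads (log axis) of the 9 genes in pathway order, with 1 point per library and a bar at the mean of 2 libraries, Tdrd7 null left of control. Dhcr7 lay lower in both Tdrd7 null libraries and Cyp51 and Nsdhl higher, while Hsd17b7, Ebp and Sc5d overlapped.

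Sqle and Lss act first. Sqle (ENSMUSG00000022351, chromosome 15, 59315077 to 59331192), the squalene epoxidase, had 44.7 and 42.2 scaled reads in the Tdrd7 null libraries, against 38.9 and 38.8 in the control libraries. Both Tdrd7 null libraries were above both control libraries. The log2 fold change was 0.16 (SE 0.0588), with a 95% interval of 0.030 to 0.28 before adjustment, and it did not pass (limma adjusted p = 0.0807). Lss (ENSMUSG00000033105, chromosome 10, 76531588 to 76557138), which forms lanosterol, had 20.5 and 22.0 scaled reads in the Tdrd7 null libraries, against 20.5 and 18.3 in the control libraries. The higher control library was almost level with the lower Tdrd7 null library, and the log2 fold change of 0.13 (SE 0.0744) did not pass (limma adjusted p = 0.256). It was 0.20 without control replicate 1, 0.050 without control replicate 2 and 0.079 without Tdrd7 null replicate 2. Lss shares 381 of its 10787 exonic bases with an antisense gene, and reads there could not be assigned by strand.

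Cyp51 (ENSMUSG00000001467, chromosome 5, 4081145 to 4104746) rose. This gene encodes lanosterol demethylase. It had 77.4 and 74.7 scaled reads in the Tdrd7 null libraries, against 64.5 and 59.7 in the control libraries. The groups did not overlap, and the gap between them was larger than the distance between the libraries of either genotype. The means were 76.0 ± 1.90 in Tdrd7 null lenses and 62.1 ± 3.41 in control lenses (SD, n = 2 pools each), a ratio of 1.22. On the log2 scale the fold change was 0.29, with an SE of 0.0579 (limma adjusted p = 0.00622). Without control replicate 2, the lower of the control libraries, the change was 0.23 and missed the threshold (limma adjusted p = 0.0766). Cyp51 shares 166 of its 4415 exonic bases with Akap9 on the opposite strand. Akap9 had 35.0 and 39.1 scaled reads in the Tdrd7 null libraries, against 35.1 and 33.1 in the control libraries, and did not pass (limma adjusted p = 0.258).

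Of the 3 genes that remove the next methyl groups, Nsdhl rose and the other two did not pass. Nsdhl (ENSMUSG00000031349, chromosome X, 72918557 to 72958514), the dehydrogenase of this complex, had 12.7 and 14.4 scaled reads in the Tdrd7 null libraries, against 9.79 and 9.98 in the control libraries. The control libraries were nearly level and both Tdrd7 null libraries lay above them. The ratio of the means was 1.37 and the log2 fold change 0.42, with an SE of 0.0833 (limma adjusted p = 0.00609). Without control replicate 1 the log2 fold change was 0.41 and missed the threshold (limma adjusted p = 0.0593). Msmo1 (ENSMUSG00000031604, chromosome 8, 64718139 to 64733792), the oxidase, had 16.2 and 17.0 scaled reads in the Tdrd7 null libraries, against 15.8 and 13.9 in the control libraries. Its log2 fold change of 0.15 (SE 0.0793) did not pass (limma adjusted p = 0.194), and it was 0.25 without control replicate 1 and 0.064 without control replicate 2. Hsd17b7 (ENSMUSG00000026675, chromosome 1, 169949535 to 169969241), the ketoreductase, had 7.98 and 6.42 scaled reads in the Tdrd7 null libraries, against 7.65 and 5.94 in the control libraries. Replicate 1 was the higher in both genotypes, the groups overlapped, and the log2 fold change of 0.076 (SE 0.120) did not pass (limma adjusted p = 0.699).

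Nsdhl and Ebp are X-linked, and the Y-linked genes differed between the libraries. Uty had 7.26 and 3.77 scaled reads in Tdrd7 null replicates 1 and 2, against 3.21 and 3.12 in the control libraries. Eif2s3y had 48.0 and 25.5 in Tdrd7 null replicates 1 and 2, against 17.9 and 21.2 in the control libraries. Uty, Ddx3y, Eif2s3y and Kdm5d were all highest in Tdrd7 null replicate 1. In each of them Tdrd7 null replicate 2 was also above both control libraries, by less. All but Kdm5d were called higher (limma adjusted p = 0.0425 for Uty, 0.0337 for Ddx3y and 0.0129 for Eif2s3y). The part of the sexes in the pools in the values of Nsdhl and Ebp was not tested. Nsdhl was the higher in Tdrd7 null replicate 2, and without Tdrd7 null replicate 1 its log2 fold change was 0.50 (limma adjusted p = 0.00141). In the same fit Ebp stood at 0.042 (limma adjusted p = 0.866), against -0.13 with all libraries. Leaving out Tdrd7 null replicate 1 did not level the Y-linked genes, since Tdrd7 null replicate 2 was above both control libraries in them. The Y-linked genes were chosen after their values were seen. Xist, looked up with them, was not among the listed genes, so these values cover Y-linked genes only.

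The genes of the last ring steps before reduction did not pass. Ebp (ENSMUSG00000031168, chromosome X, 8185329 to 8193512), the sterol isomerase, had 2.47 and 3.41 scaled reads in the Tdrd7 null libraries, against 2.85 and 3.76 in the control libraries. The groups overlapped, and the log2 fold change of -0.13 (SE 0.141) had a 95% interval of -0.43 to 0.18 (limma adjusted p = 0.557). Ebp rested on the fewest reads of the 9 genes, from 93 to 159 per library, where counting error alone was 10.4% at the lowest. Sc5d (ENSMUSG00000032018, chromosome 9, 42254177 to 42264300), the sterol desaturase, had 13.4 and 10.2 scaled reads in the Tdrd7 null libraries, against 10.7 and 10.9 in the control libraries. The Tdrd7 null libraries lay on either side of the control libraries, and the log2 fold change of 0.11 (SE 0.104) did not pass (limma adjusted p = 0.506).

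Dhcr7 (ENSMUSG00000058454, chromosome 7, 143823145 to 143848410) fell and differed most of the 9 genes. It encodes the reductase whose loss causes Smith-Lemli-Opitz syndrome in humans. It had 19.6 and 17.2 scaled reads in the Tdrd7 null libraries, against 27.1 and 24.7 in the control libraries. The groups did not overlap, and these levels stood on 737 and 611 reads in the Tdrd7 null libraries, against 1122 and 1044 in the control libraries. The means were 18.4 ± 1.70 in Tdrd7 null lenses and 25.9 ± 1.68 in control lenses (SD, n = 2 pools each), a ratio of 0.711. On the log2 scale the change was -0.47, with an SE of 0.0773 and a 95% interval of -0.64 to -0.30 (limma adjusted p = 0.00271). Leaving out each library in turn gave -0.56 to -0.38, and each of these passed. By size, the change ranked 161 among the 10696 tested genes.

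**Figure D2:**
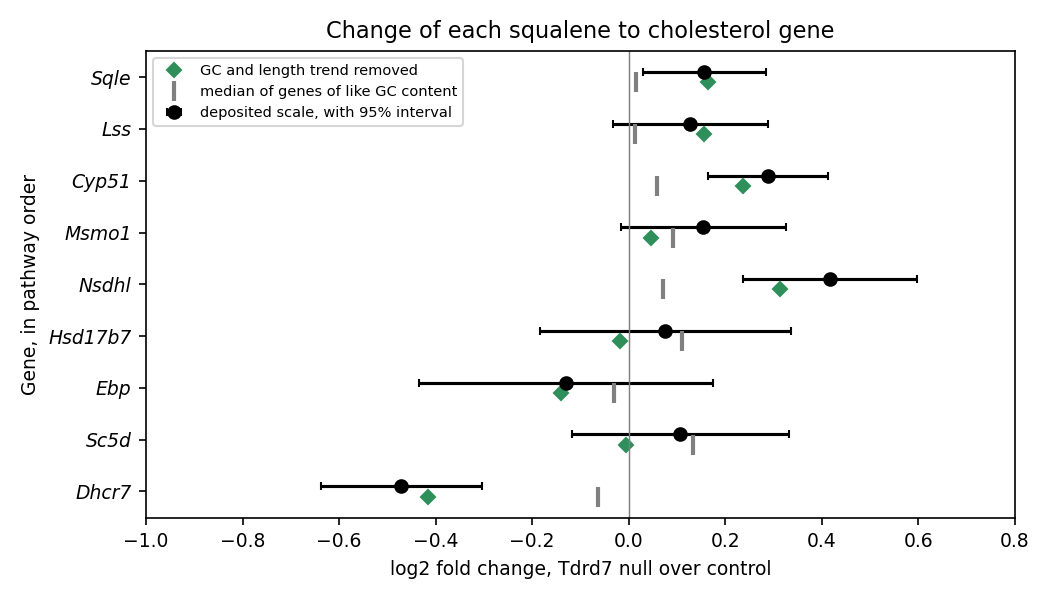
Log2 fold change (Tdrd7 null over control) of each gene with its 95% interval before adjustment (circles), the value with the GC and length trend removed (diamonds) and the median of tested genes within 1 percentage point of its GC content (grey ticks). Cyp51, Nsdhl and Dhcr7 kept values of 0.24, 0.31 and -0.42 with the trend removed, away from the grey ticks.

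Fold changes in this comparison ran with the GC content of transcripts, and the 9 genes span 42.9% to 52.8% GC. Genes within 1 percentage point of GC of Cyp51 and Nsdhl had median log2 fold changes of 0.060 and 0.070, and those near Dhcr7 had -0.063. With the GC and length trend of each library taken out, Cyp51 stood at 0.24 (limma adjusted p = 0.0283), Nsdhl at 0.31 (adjusted p = 0.0464, close to the threshold) and Dhcr7 at -0.42 (adjusted p = 0.00927). These are 2 genes higher, where 1.95% of 10656 tested genes were, and 1 lower, where 1.33% were. Sc5d and Hsd17b7, the members of lowest GC content, stood at -0.0062 and -0.018 with the trend removed, and the medians of genes of like GC content were 0.13 and 0.11. Msmo1 stood at 0.046 then, and Sqle and Lss at 0.17 and 0.16, all without passing (limma adjusted p = 0.783, 0.114 and 0.256).

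Per kilobase of the longest transcript, the levels of the 9 genes covered a range of 11.6-fold. Which transcripts the lenses used was not tested. The range, the order of the genes and their shares of the sum depend on this choice of length. Cyp51 was the most abundant, at 19.3 ± 0.483 scaled reads per kilobase in Tdrd7 null lenses and 15.8 ± 0.868 in control lenses (SD, n = 2). Sqle had 9.72 ± 0.389 scaled reads per kilobase in Tdrd7 null lenses and 8.69 ± 0.0223 in control lenses. Dhcr7 had 6.54 ± 0.603 in Tdrd7 null lenses and 9.19 ± 0.596 in control lenses, on the same scale. In the control libraries Dhcr7 was level with Sqle within their spread, and in the Tdrd7 null libraries it was level with Nsdhl at 6.26 ± 0.573. Msmo1 followed at 5.47 and 5.73 in the Tdrd7 null libraries, against 5.34 and 4.67 in the control libraries, and Lss at 3.04 ± 0.150 in Tdrd7 null and 2.78 ± 0.220 in control lenses. Sc5d, Ebp and Hsd17b7 were lowest. Their mean levels lay between 1.56 and 2.47 per kilobase in Tdrd7 null and between 1.47 and 2.26 in control lenses, and in the Tdrd7 null lenses Ebp and Hsd17b7 differed by less than their spread.

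**Figure D3:**
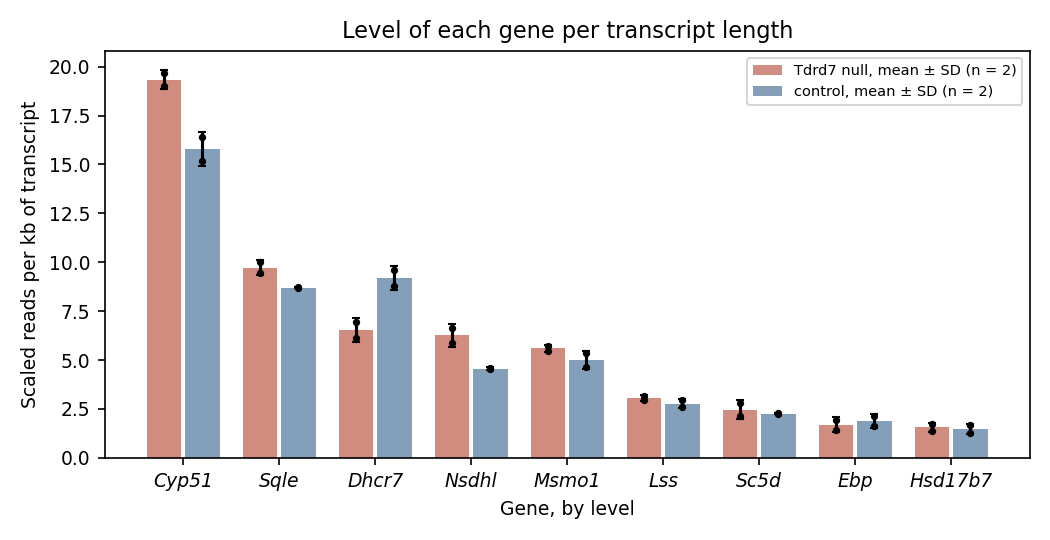
Scaled reads per kilobase of the longest transcript, as mean ± SD of 2 libraries (bars) with each library as a point, Tdrd7 null left of control, genes ordered by mean level. Cyp51 is highest in both genotypes, and Dhcr7 stands at 6.54 in Tdrd7 null and 9.19 in control lenses.

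The make-up of the group shifted with these changes. Dhcr7 made up 12.3% and 11.0% of the summed level per kilobase of the 9 genes in the Tdrd7 null libraries, against 18.1% and 17.5% in the control libraries. Cyp51 made up 34.6% and 34.2% in the Tdrd7 null libraries, against 30.9% and 30.2% in the control libraries. Nsdhl made up 10.3% and 12.0% in the Tdrd7 null libraries, against 8.52% and 9.16% in the control libraries. The summed level itself was 56.8 and 55.6 scaled reads per kilobase in the Tdrd7 null libraries, against 53.0 and 50.3 in the control libraries, so the sum moved less than the shares of Dhcr7 and Nsdhl.

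Upstream, in the mevalonate to squalene steps, 3 of 9 measured genes rose and none of them fell, where 10.1% of all tested genes were called higher and 7.88% lower. The median log2 fold change of the list was 0.042. Idi1, the isopentenyl diphosphate isomerase, had 66.5 and 63.5 scaled reads in the Tdrd7 null libraries, against 38.4 and 39.2 in the control libraries (log2 fold change 0.73, limma adjusted p = 3.75e-05). Hmgcs1, the synthase that makes HMG-CoA, had 110.0 and 107.9 in the Tdrd7 null libraries, against 86.7 and 83.0 in the control libraries (0.36, limma adjusted p = 0.00166). Fdft1, which makes squalene itself, had 67.5 and 64.9 in the Tdrd7 null libraries, against 55.1 and 54.9 in the control libraries (0.26, limma adjusted p = 0.00734). All 3 were also called with the GC and length trend removed. Mvd and Fdps stood at -0.15 and 0.091 and did not pass. Fdft1 shares 774 exonic bases with Ctsb, Hmgcs1 557 with an antisense gene and Idi1 323 with an unconfirmed one, all on the opposite strand, so these 3 levels may include reads of the partner.

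Of 9 measured partner enzymes of the squalene to cholesterol steps, none rose and 1 fell, near the 10.1% and 7.88% of all tested genes, with a median log2 fold change of 0.062. Cyb5r3, a reductase that passes electrons to cytochrome b5, had 81.0 and 80.4 scaled reads in the Tdrd7 null libraries, against 96.2 and 98.5 in the control libraries (log2 fold change -0.27, limma adjusted p = 0.00555). It shares 243 of its 4298 exonic bases with an antisense gene. With the GC and length trend removed it was at -0.17 and did not pass (limma adjusted p = 0.0649). Por, which donates electrons to Cyp51 and Sqle, stood at -0.18, and the cytochrome Cyb5b at 0.12, and both did not pass (limma adjusted p = 0.0852 and 0.23).

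Among 15 measured genes of SREBP control and sterol uptake, 2 rose and 4 fell, with a median log2 fold change of -0.12. Over all tested genes 10.1% were called higher, a share close to that of the list, and 7.88% lower. Insig1, which holds SREBP in the endoplasmic reticulum and is itself an SREBP target, had 66.1 and 61.1 scaled reads in the Tdrd7 null libraries, against 51.5 and 53.1 in the control libraries (log2 fold change 0.28, limma adjusted p = 0.00835). Npc1, which exports cholesterol from lysosomes, had 15.1 and 13.8 in the Tdrd7 null libraries, against 18.3 and 18.0 in the control libraries (-0.31, limma adjusted p = 0.0139). Lpin1, a phosphatidate phosphatase that also restrains SREBP, had 45.6 and 39.5 in the Tdrd7 null libraries, against 60.5 and 69.8 in the control libraries (-0.60, limma adjusted p = 0.00096). These 3 genes were also called with the GC and length trend removed. Npc1 shares 511 of its 11317 exonic bases with Rmc1 on the opposite strand, which was itself called lower (-0.48, limma adjusted p = 0.00106), so the level of Npc1 may include its reads.

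Srebf1, which encodes SREBP-1, stood at -0.29 (limma adjusted p = 0.0254) and at -0.090 with the trend removed, where it did not pass (limma adjusted p = 0.535). It shares 109 of its 5634 exonic bases with Rai1 on the opposite strand, which was called lower (-0.33, limma adjusted p = 0.0107). Scap and Mbtps2, both needed for SREBP activation, were the other called genes of the list, at -0.26 and 0.31, and did not pass with the trend removed (limma adjusted p = 0.714 and 0.43). Both were named after their values were seen. Mbtps2 shares 2867 exonic bases with Yy2 on the same strand and Scap 985 with an unconfirmed gene on the opposite strand, and both are uncertain. Srebf2, which encodes SREBP-2, the main regulator of sterol synthesis, stood at -0.16 and Mbtps1 at -0.12, and neither passed (limma adjusted p = 0.0734 and 0.141).

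Of the 7 measured genes of oxysterol formation, the oxysterol receptor LXR and cholesterol efflux, 0 passed limma after adjustment, with a median log2 fold change of -0.069. Over all tested genes 10.1% were called higher and 7.88% lower, and in so short a list 0 calls does not stand apart from those shares. Cyp46a1, a cholesterol hydroxylase, had 0.61 and 0.99 scaled reads in the Tdrd7 null libraries, against 1.33 and 1.47 in the control libraries, and stood at a log2 fold change of -0.42 (limma adjusted p = 0.0658). Nr1h2, one of the LXR genes, stood at -0.17 (limma adjusted p = 0.161).

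**Figure D4:**
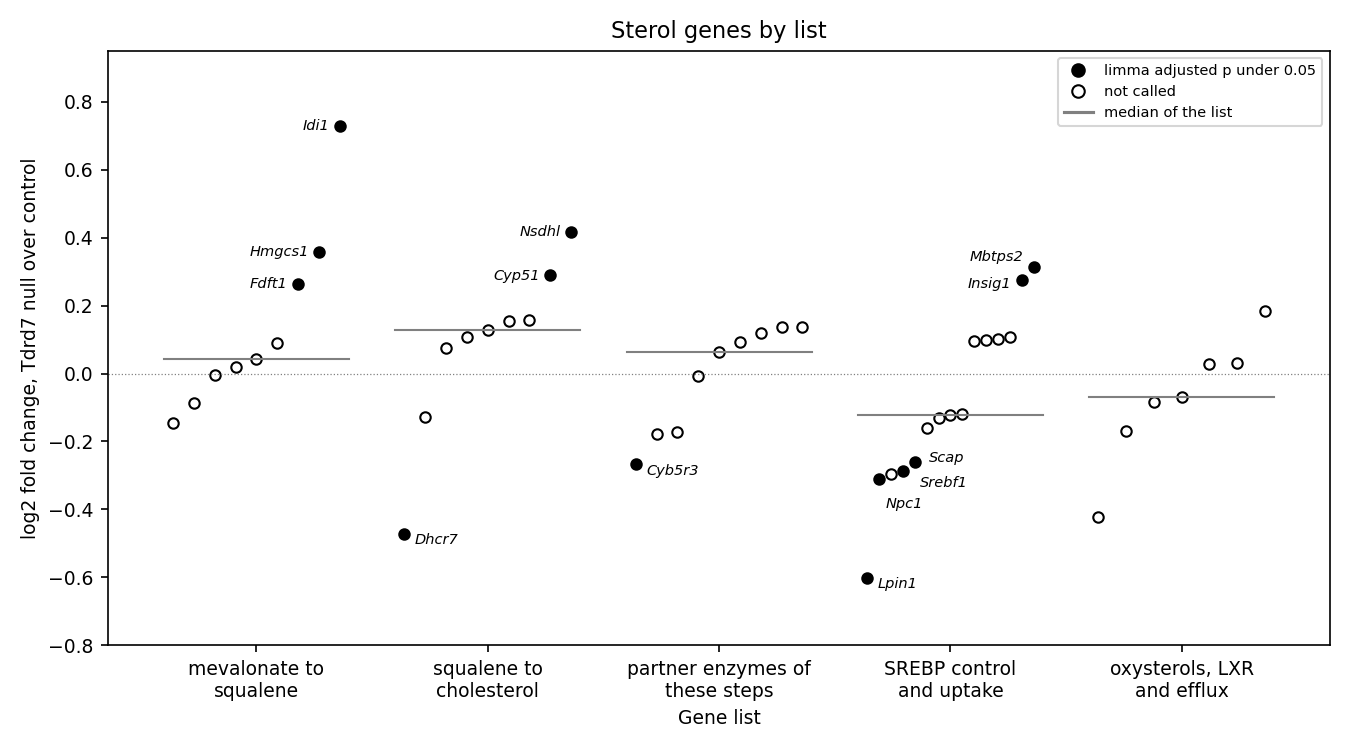
Log2 fold change (Tdrd7 null over control) of each measured sterol gene, by list, with called genes filled and named and a grey line at the median of each list. The medians lie between -0.12 and 0.13, and called genes stand on both sides of 0 in the squalene to cholesterol and the SREBP lists.

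**Figure D5:**
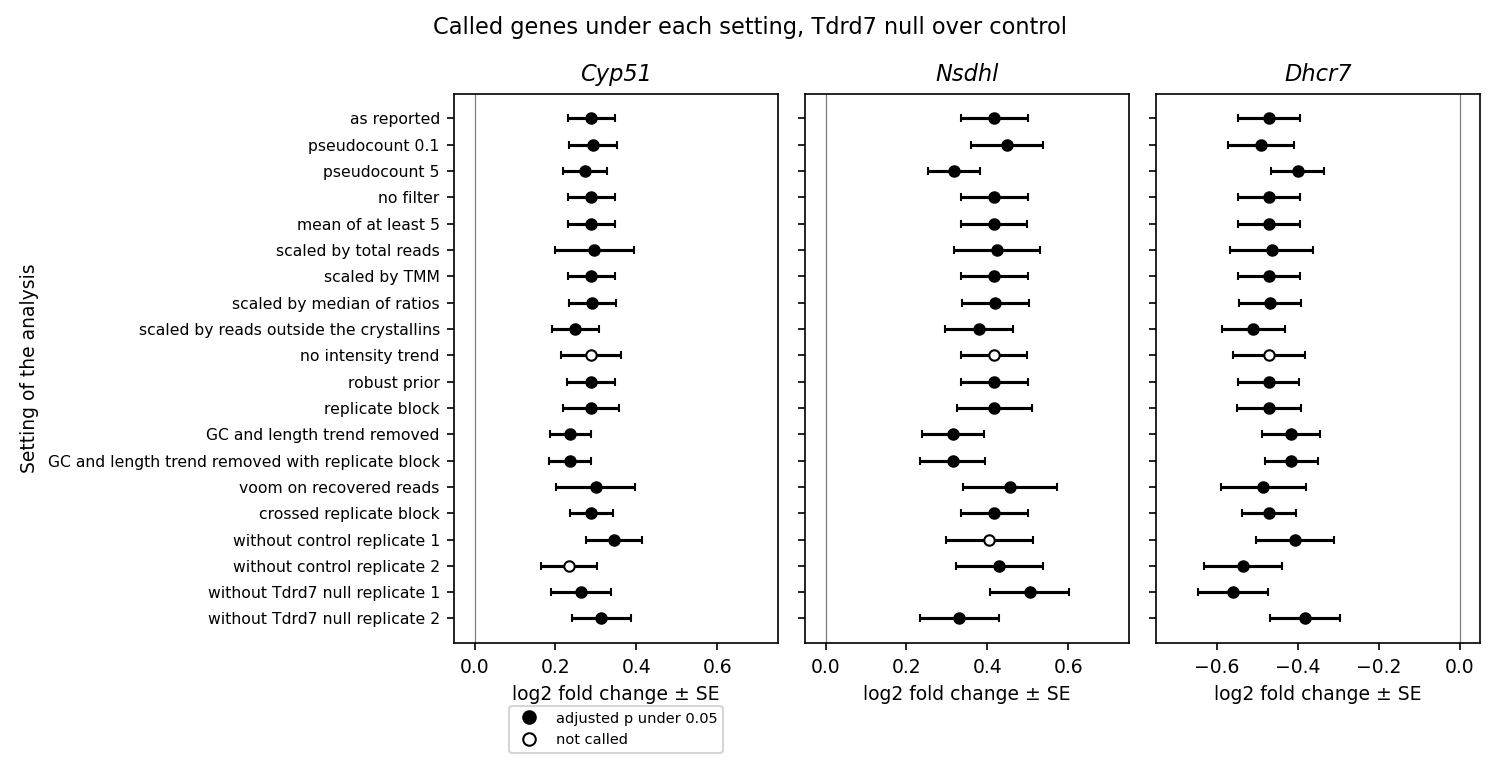
Log2 fold change ± SE (Tdrd7 null over control) of Cyp51, Nsdhl and Dhcr7 as reported and under 19 other settings, filled where the limma adjusted p was under 0.05. The direction was the same in every setting shown, and without the intensity trend none of the 3 passed.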

How the data were processed

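Whole-lens RNA of the 4 libraries was selected on oligo-dT and read for 75 nt from both ends with an unstranded kit, per the labels' protocols. The submitters' processing notes name the GRCm38 (mm10) build and the tools TopHat2 2.0.9, Trimmomatic, Cuffnorm and Cufflinks, and the sources used here do not name the counter. The deposited values are a signal per gene and library. All of them lay within 0.01 of a whole multiple of 1 step per library, so they are read counts divided by 1 factor per library. The factors matched trimmed mean of M-values scaling of the recovered reads (largest difference 9.85e-09%). Every gene reached 1.02 in some library, so low genes had been left out.

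The test was limma 3.58.1 (R 4.3.3) on log2(scaled reads + 1), which understates changes of low genes, over 10696 genes whose mean was at least 1, with an intensity-dependent prior (11.1 prior and 2 residual degrees of freedom), two-sided, with Benjamini-Hochberg adjustment over all of them. An exact permutation test of 2 against 2 libraries cannot go below p = 0.333. Length and GC content were those of the longest GENCODE M21 transcript (10750 of 10790 genes), and the trends on them were removed with splines of 5 degrees of freedom. Intervals are at 95% and counting errors cover counting only. The fit was tested on simulated data.

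The genes, lists and alternatives were chosen with earlier results of these data known. All 9 genes are named. From each other list, up to 4 called and 2 uncalled genes are named by smallest adjusted p, and the markers, overlapping genes and any others named were chosen after their values were seen.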

Additional observations from a re-analysis of the deposited data

How the results depend on the processing

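Of 19 alternatives, Cyp51 was called in 17, Nsdhl in 17 and Dhcr7 in 18, with the same direction in all 19. The 2 higher and 1 lower calls became 0 and 0 without the intensity trend (limma adjusted p = 0.0718, 0.056 and 0.0551), a setting in which 16 of all genes were called. Leaving out each library gave 1 to 2 higher calls, with Nsdhl lost without control replicate 1 and Cyp51 without control replicate 2. In these fits the lone library of a genotype is assumed to vary like those of the other. The cause of these losses was not tested, beyond the fewer libraries. The counts of all called genes, 1077 higher and 843 lower, became 560 and 430 with scaling by total reads, 208 and 142 with the GC and length trend removed, 558 and 429 with voom on the recovered reads, 293 and 138, 332 and 186 and 520 and 391 without control replicate 1, control replicate 2 and Tdrd7 null replicate 2, and 768 and 1262 with scaling by reads outside the crystallins. Scaling by trimmed mean of M-values was the deposited scaling itself.

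Of the genes not called, 3 changed sign and none of these values passed. Hsd17b7 stood at -0.018 with the GC and length trend removed, alone or with the replicate block, and at -0.083 to 0.23 with a library left out. Sc5d stood at -0.0062 with that trend removed, alone or with the replicate block, and at -0.073 to 0.29 with a library left out. Ebp stood at -0.30 to 0.042 with a library left out. With the replicate block alone 2 members were called higher and 1 lower, as without it. Same-numbered libraries did not deviate together (r = -0.151 across 10696 genes). With 2 libraries per genotype this compares 1 difference per genotype, so it cannot decide whether the numbers pair the libraries. With the numbers crossed, chosen after seeing the data like voom, 3 members were called higher, Sqle among them (limma adjusted p = 0.0293), and 1 lower. That setting called 1628 of all genes higher and 1408 lower. In the crossed fit and in that with the replicate block alone, 1 residual degree of freedom was left and the prior degrees of freedom were infinite. A gene's own spread then did not enter its adjusted p, and both fits count among the alternatives above. The 2 planned count models were not run, and voom was the model used on recovered reads.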
